A study of Homo sapiens with 8 samples.

Results

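The ATP-binding cassette (ABC) transporter genes were examined in an oesophageal adenocarcinoma cell line with and without knockdown of the transcription factor HNF4A. The genes were taken by name, as every symbol made of ABC, a letter from A to G and a number, which gave 43 of the 30755 symbols in the expression table. The family, its roles and the lists of related genes were chosen with earlier results of these data known. RefSeq lists 42 of them as protein coding, and ABCC13 as a transcribed pseudogene. The RefSeq symbols ABCB11, ABCC12 and ABCD2 have the same pattern and were not analysed here.

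All libraries came from ESO26, an established line derived from an adenocarcinoma of the oesophagus and grown in RPMI-1640 medium with serum and antibiotics. The 4 RNA-seq libraries comprise 2 from cells with siRNA knockdown of HNF4A (siHNF4A) and 2 from control cells. A small interfering RNA lowers the mRNA it matches. The siRNA sequences, the time after transfection and the treatment of the control are not given in the sources used here, nor whether the libraries of a group came from separate cultures, so p-values measure only the spread between these libraries. The ChIP-seq peak lists and the 4C libraries of the series were not used here.

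ABC proteins bind and hydrolyse ATP through a pair of conserved nucleotide-binding domains, and most couple this to the movement of a substrate across a membrane. The A and G subfamilies carry many lipid and sterol transporters, the B and C subfamilies many exporters of drugs, bile constituents and conjugated anions, and the D subfamily transporters of the peroxisome and the lysosome. The E and F subfamilies have no membrane-spanning part and act on ribosomes. HNF4A is a nuclear receptor of the liver and the gut, where it regulates many genes of lipid handling and detoxification.

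Normalized counts, the deposited unit, summed to between 17912507 and 18613685 per library. Low values placed the sequencing depth, relative to control 1, at 1.11 for control 2, 1.37 for siHNF4A 1 and 1.22 for siHNF4A 2, and the absolute depth is unknown. The control libraries listed 5479 and 5640 symbols at 0, against 4260 and 4362 in the knockdown libraries. The targeted gene had 4129 and 3937 normalized counts in the controls, against 1140 and 932 in the knockdown, a log2 fold change of -1.97 (limma adjusted p = 1.59e-05). All 8 markers of columnar or gastrointestinal epithelium, among them EPCAM, KRT8, CDX2 and VIL1, had a mean of at least 10 normalized counts. Of these 8, EPCAM, KRT8 and KRT18 were called lower, by log2 fold changes of -0.29, -0.43 and -0.51 (limma adjusted p = 0.00286, 0.00162 and 0.000719), and KRT19 was called higher at 0.22 (0.0192). The shares over all tested genes were 14.1% called, 8.11% lower and 6.02% higher. CDH1 and CDX2 were not called, and both knockdown libraries lay above both controls in each. CDX1 and VIL1 had overlapping groups and were not called. The epithelial list summed to between 94385 and 97535 in the controls, against between 87879 and 89968 in the knockdown. Marker lists of squamous, fibroblast, leukocyte, endothelial and hepatocyte identity summed to at most 223 normalized counts in any library, and KRT6A was at 0 in all 4. The endothelial list summed to between 15.2 and 24.6 in the controls, against between 47.2 and 64.0 in the knockdown, and the fibroblast list to between 122 and 195, against 223 in both knockdown libraries. The leukocyte list summed to between 118 and 133 in the controls, against between 77.1 and 95.7 in the knockdown, and the hepatocyte list to between 76.4 and 89.4, against between 91.7 and 100.1. The sums of the epithelial, endothelial, fibroblast, leukocyte and hepatocyte lists did not overlap between the groups, while those of the squamous list did. Of all tested genes, taken singly, 57% did not overlap. Within the endothelial, fibroblast and leukocyte lists, VWF, COL1A1 and LYZ did not overlap, while CDH5, DCN, COL1A2, CD68 and PTPRC did. Of the tested genes in the lists of other cell types, VWF, with 8.55 and 6.68 normalized counts in the controls against 47.5 and 36.4, and KRT14, with 0.64 and 2.29 against 12.2 and 25.7, were called higher (limma adjusted p = 0.00542 and 0.0185). Both had control means under 10 and passed the filter through their knockdown values. KRT5, of the same squamous list as KRT14, went the other way without overlap of the groups. It had 32.6 and 12.1 in the controls, against 6.14 and 10.5 in the knockdown, and was not called (limma adjusted p = 0.190). The part of these markers in the results was not tested.

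Of the 43 ABC genes, 31 averaged 10 or more normalized counts across the 4 libraries and were tested. The test was limma, a linear model fitted across all 15577 genes that passed the same filter, and an adjusted p under 0.05 counted as a call. Log2 fold changes are siHNF4A minus control, with their standard error (SE) after the ± sign. In the knockdown 6 of 31 genes (19.4%) were called, 3 higher and 3 lower, among them ABCA12 and ABCA3, which rose, and ABCC4, ABCC2 and ABCE1, which fell. Over all tested genes 14.1% were called, 6.02% higher and 8.11% lower, and the share of ABC genes was near that background. In 19 of the 31 ABC genes (61.3%) both knockdown libraries lay on the same side of both controls, against 57% of all tested genes, with 8 of them higher (26.9% of all tested genes) and 11 lower (30.1%). The median log2 fold change of the 31 genes was 0.0078, beside -0.0073 for all tested genes, and it was -0.11 without control replicate 2, -0.049 without siHNF4A replicate 1 and 0.11 without control replicate 1. The calls were 5 higher and 3 lower without control replicate 1, and 2 and 2 without control replicate 2. They were 1 and 1 without siHNF4A replicate 1, and 2 and 1 without siHNF4A replicate 2. As RNA was taken from whole cultures, fewer cells expressing a gene and less RNA per cell cannot be told apart.

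**Figure D1:**
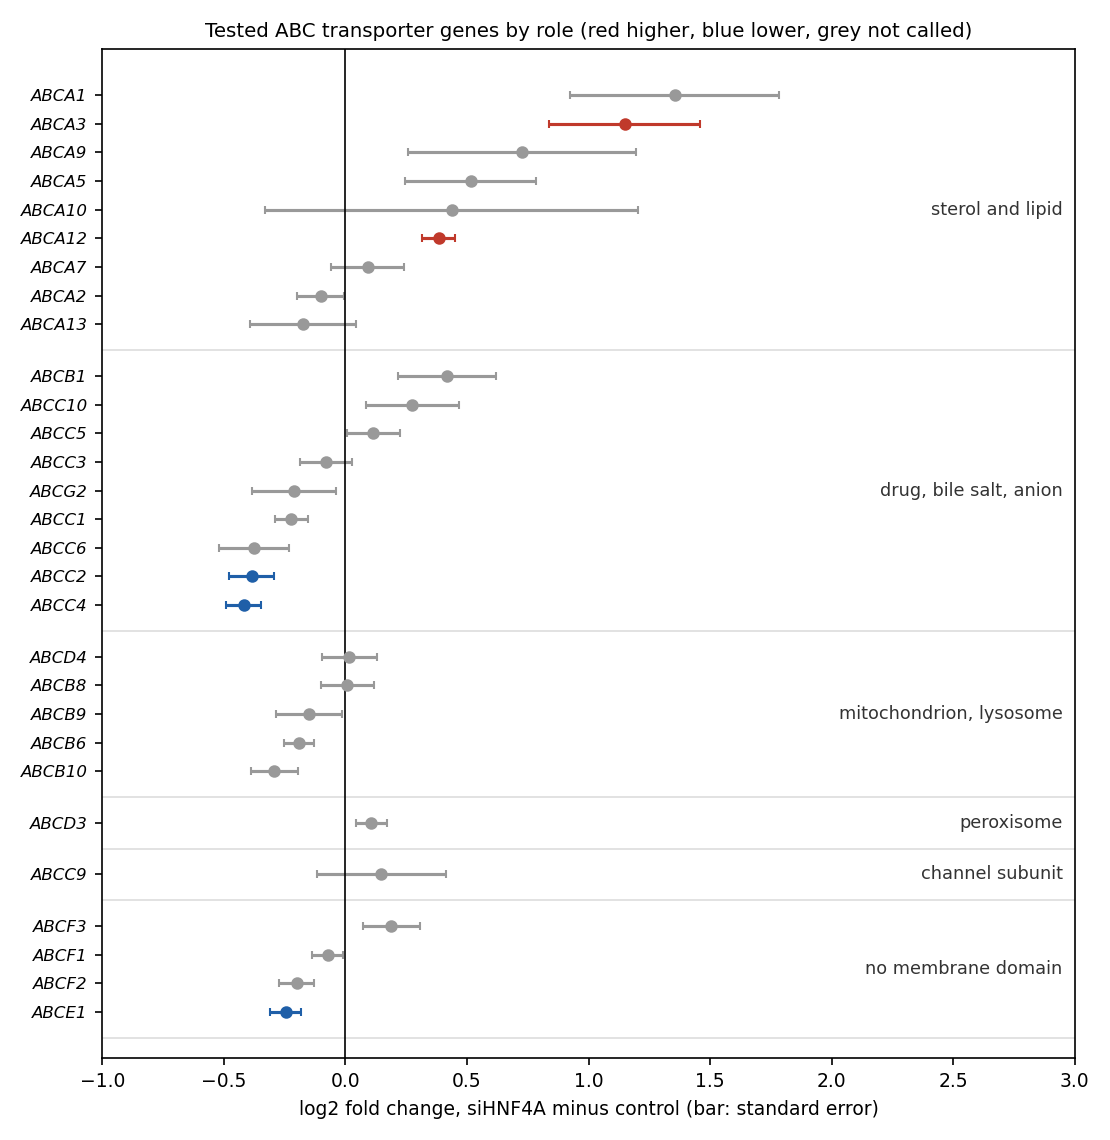
Log2 fold changes of 29 of the 31 tested ABC transporter genes (x axis, siHNF4A minus control, with the standard error) grouped by role, with genes called higher in red, called lower in blue and not called in grey. The 9 sterol and lipid genes lie between -0.17 (ABCA13) and 1.35 (ABCA1), and the mitochondrial and lysosomal genes lie at or to the left of 0.02.

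The sequence before the start varied among the called genes. As examples, the 250 bases upstream of the start are given for the called genes with the smallest adjusted p, from the RefSeq promoter table of GRCh38.p14, read 5′ to 3′ on the strand of the gene. Capitals mark CAAAGT and CAAAGG, the leading letters of longer words to which HNF4 factors are known to bind, on either strand.
ABCC4 (chr13:95301452-95301701, minus strand): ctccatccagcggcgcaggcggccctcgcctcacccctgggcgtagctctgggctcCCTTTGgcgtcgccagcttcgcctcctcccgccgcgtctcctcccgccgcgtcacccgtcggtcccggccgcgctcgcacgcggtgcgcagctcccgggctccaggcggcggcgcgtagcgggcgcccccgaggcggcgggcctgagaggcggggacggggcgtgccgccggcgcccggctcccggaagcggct
ABCC2 (chr10:99782390-99782639, plus strand): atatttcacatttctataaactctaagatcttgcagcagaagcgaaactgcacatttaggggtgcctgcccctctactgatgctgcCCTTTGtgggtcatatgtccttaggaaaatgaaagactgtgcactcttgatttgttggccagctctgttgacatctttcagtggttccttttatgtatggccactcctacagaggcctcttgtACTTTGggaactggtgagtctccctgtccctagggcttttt
ABCA12 (chr2:215138627-215138876, minus strand, the first of its 2 listed starts): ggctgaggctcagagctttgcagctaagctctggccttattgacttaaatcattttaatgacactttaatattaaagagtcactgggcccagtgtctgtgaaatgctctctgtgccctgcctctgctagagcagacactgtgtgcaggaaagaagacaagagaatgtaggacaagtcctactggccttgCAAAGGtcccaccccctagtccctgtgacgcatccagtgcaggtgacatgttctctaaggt
The sequence of ABCC4 is rich in G and C (80.4%) and holds 42 CpG pairs, while those of ABCC2 (45.6%) and ABCA12 (48.8%) hold 1 CpG each. Promoters were found for 32 of the 43 ABC genes, with 47 starts, at a median G and C content of 62.8% against 58% over all 35116 promoters. The promoters of ABCA3 (79.2% G and C) and ABCE1 (60%) and the second start of ABCA12 (36.4%) held 0 of these words. Either word occurred in 9 of the 47 ABC promoters (19.1%) and in 23.9% of all promoters of the table. The full words CAAAGTCCA and CAAAGGTCA occurred in 0 of the 47, and in 0.325% and 0.339% of all promoters. These matches describe letters in this window and were not related to binding.

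Among exporters of drugs, bile constituents and conjugated anions, ABCC4 and ABCC2 fell. This role had 11 genes, of which 9 were tested, and 2 were called, both lower (22.2%, beside 8.11% of all tested genes called lower and 14.1% called in either direction). ABCC4 (MRP4), which exports cyclic nucleotides, prostaglandins and conjugated bile acids, had 2069 and 1994 normalized counts in the controls, against 1487 and 1552 in the knockdown. Both knockdown libraries lay below both controls, at 74.8% of the control mean on average. Its log2 fold change was -0.42 ± 0.072 (SE, limma adjusted p = 0.00526). The call held with each of the 4 libraries left out in turn, with an adjusted p of at most 0.0445.

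ABCC2 (MRP2), the apical exporter of glucuronide and glutathione conjugates in hepatocytes and enterocytes, had 1078 and 1204 normalized counts in the controls, against 847 and 897 in the knockdown. The groups did not overlap, and the knockdown mean was 76.4% of that in the controls. Its log2 fold change was -0.39 ± 0.091 (SE, limma adjusted p = 0.0210). It was not called without control replicate 2 (adjusted p = 0.0894), siHNF4A replicate 1 (0.122) or siHNF4A replicate 2 (0.0658).

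The other tested multidrug resistance proteins of the C subfamily were not called, and ABCC11 was below the filter and not tested. ABCC1 (MRP1), an exporter of glutathione conjugates found in most tissues, had 2261 and 2332 normalized counts in the controls, against 2016 and 1921 in the knockdown. Its groups did not overlap, and the log2 fold change was -0.22 ± 0.069 (SE, limma adjusted p = 0.0617). With only genes from a mean of 50 tested, that p was 0.0444. ABCC3 (MRP3), the basolateral exporter of glucuronides and bile salts, had 4212 and 3253 in the controls, against 3668 and 3348 in the knockdown. Its groups overlapped, and its log2 fold change of -0.079 became -0.27 (limma adjusted p = 0.0442) without control replicate 2, and 0.11 without control replicate 1. ABCC5, an exporter of cyclic nucleotides, had a log2 fold change of 0.11 ± 0.11 (SE). For ABCC10 the 637 and 421 normalized counts of the controls overlapped the 723 and 543 of the knockdown. Its log2 fold change of 0.27 was 0.57 without control replicate 1 (limma adjusted p = 0.0134) and -0.025 without control replicate 2.

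ABCC6, a transporter of liver and kidney whose loss causes pseudoxanthoma elasticum, had 240.35 and 259 normalized counts in the controls, against 199.6 and 185 in the knockdown. The groups did not overlap, and the log2 fold change was -0.38 ± 0.14 (SE, limma adjusted p = 0.118). The gene has partial copies on the same chromosome, the pseudogenes ABCC6P1 and ABCC6P2, with which it may share reads. ABCC6P1 had 101 and 91.6 normalized counts in the controls, against 67.8 and 48.6 in the knockdown. ABCC6P2 had 29.9 and 23.8 in the controls, against 15.8 and 13.9 in the knockdown. Neither was called (adjusted p = 0.0764 and 0.197 in limma). The sum of the 3 symbols was 373 ± 2.48 normalized counts (SD, n = 2) in the controls and 265 ± 25.3 (SD, n = 2) in the knockdown.

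**Figure D2:**
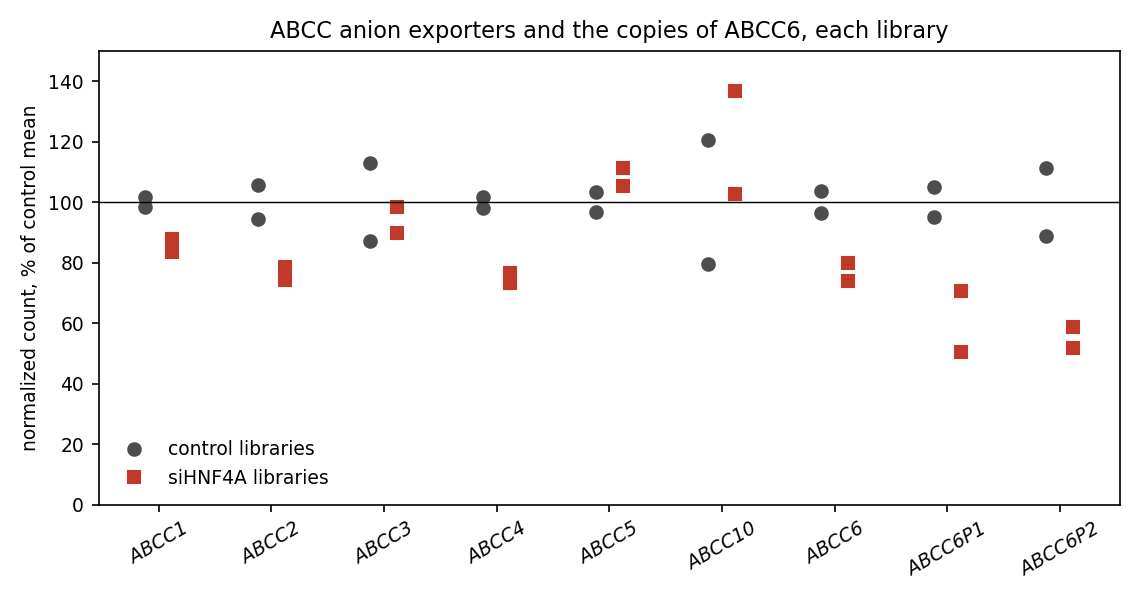
Normalized counts of 7 tested ABCC exporters and of the pseudogenes ABCC6P1 and ABCC6P2 in each library, as percent of the control mean of the same gene (y axis), with controls as circles and siHNF4A libraries as squares. The knockdown libraries of ABCC1, ABCC2, ABCC4, ABCC6 and both copies lie below the controls, those of ABCC5 lie above them, and those of ABCC3 and ABCC10 overlap them.

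The exporters best known from drug resistance outside the C subfamily were not called. ABCB1, which encodes P-glycoprotein, had 83.6 and 77.4 normalized counts in the controls, against 114 and 102 in the knockdown. Control and knockdown did not overlap, and the log2 fold change was 0.42 ± 0.20 (SE, limma adjusted p = 0.209). ABCG2 (BCRP), an exporter of urate, porphyrins and drugs, had 163 and 146 in the controls, against 137 and 129 in the knockdown. Its log2 fold change was -0.21 ± 0.17 (SE, limma adjusted p = 0.463).

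Among sterol and lipid transporters, ABCA12 and ABCA3 rose. Of 17 genes of this role 9 were tested, all of the A subfamily, and 2 were called, both higher (22.2%, beside 6.02% of all tested genes called higher and 14.1% called in either direction). ABCA1 and ABCA10 had control means under 10 normalized counts and passed the filter through their knockdown values. ABCA12, a lamellar body lipid transporter best known from the skin barrier, had 2156 and 2060.5 normalized counts in the controls, against 2733 and 2768 in the knockdown. Both knockdown libraries lay above both controls, at 130.5% of the mean of the controls. The log2 fold change was 0.38 ± 0.067 (SE, limma adjusted p = 0.00537), and the call held with each of the 4 libraries left out in turn (adjusted p at most 0.0453).

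ABCA3, the lamellar body phospholipid transporter of the lung, had 35.2 and 33.3 normalized counts in the controls, against 101 and 58.5 in the knockdown. The groups did not overlap, but the knockdown libraries differed from each other more than the controls did. The log2 fold change was 1.15 ± 0.31 (SE, limma adjusted p = 0.0357). Without siHNF4A replicate 1 it was 0.76 with an adjusted p of 0.288, and after quantile normalization the adjusted p was 0.0571. ABCA17P, a pseudogene related to ABCA3, was below the filter, with 9.57 and 8.05 normalized counts in the controls, against 4.45 and 2.79 in the knockdown.

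ABCA1, which exports cholesterol and phospholipid to apolipoprotein A-I, was not called. It had 8.28 and 9.69 normalized counts in the controls, against 27.7 and 21.5 in the knockdown, without overlap. The log2 fold change was 1.35 ± 0.43 (SE, limma adjusted p = 0.0654). ABCG1, which exports cholesterol to lipoprotein particles, lay just below the filter with 6.89 and 8.91 in the controls, against 12.2 and 11.5 in the knockdown. When all genes above 0 were tested, its adjusted p was 0.624 in limma.

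The other tested A genes were not called. ABCA5, a lysosomal protein encoded on chromosome 17, had 119 and 73.7 normalized counts in the controls, against 111 and 162 in the knockdown. Its groups overlapped, and its log2 fold change of 0.52 was 0.86 without control replicate 1 (limma adjusted p = 0.0306), 0.17 without control replicate 2 (0.731), 0.79 without siHNF4A replicate 1 (0.187) and 0.24 without siHNF4A replicate 2 (0.728). ABCA10, its neighbour on chromosome 17, had 11.6 and 4.65 in the controls, against 4.28 and 23.7 in the knockdown. The 2 genes overlap in RefSeq, so reads may be shared between them. ABCA9, from the same cluster, had 14.0 and 8.02 in the controls, against 20.3 and 16.4 in the knockdown. Its log2 fold change of 0.73 ± 0.47 (SE) moved to 1.09 when control replicate 1 was left out, and to 0.36 when control replicate 2 was. ABCA2, a lysosomal transporter linked to sterol transport, ABCA7, a phospholipid transporter linked to Alzheimer's disease, and ABCA13 had overlapping groups and log2 fold changes of -0.10, 0.092 and -0.17.

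**Figure D3:**
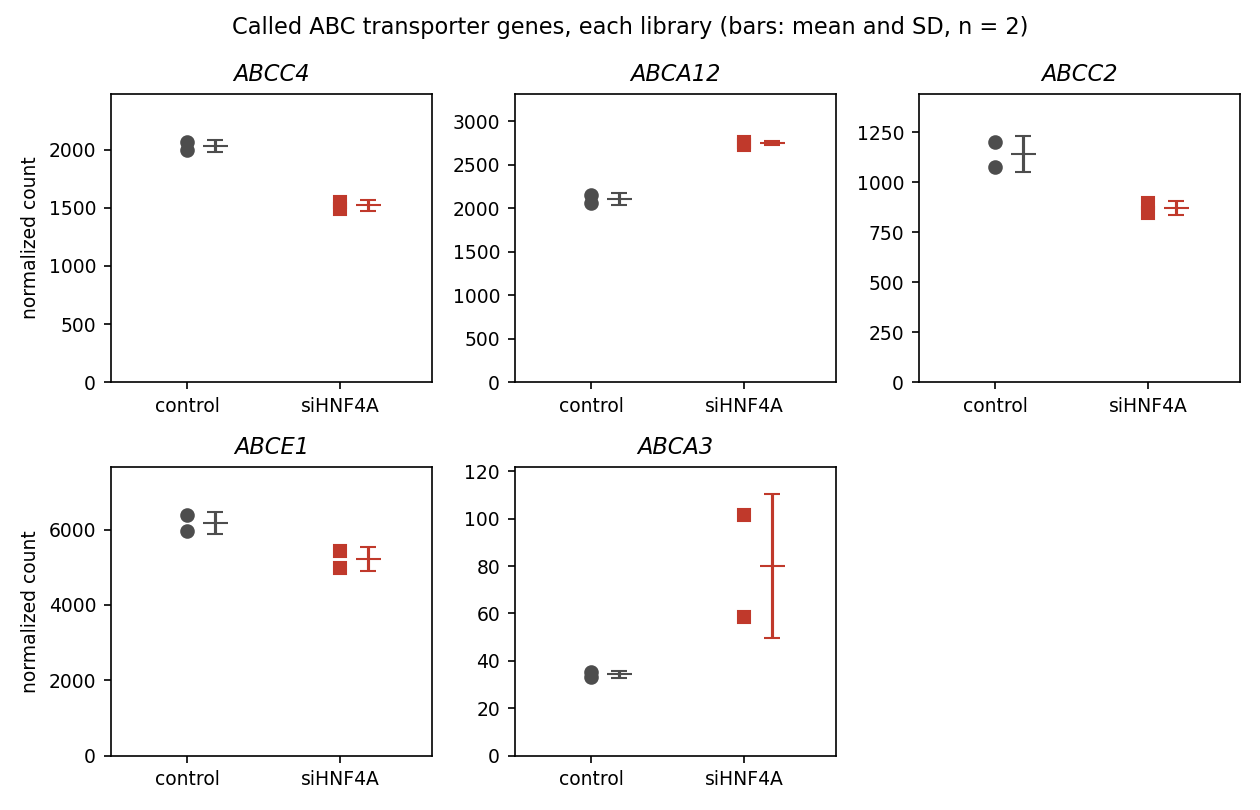
Normalized counts (y axis, from 0) of 5 of the 6 called ABC transporter genes in each control library (circles) and each siHNF4A library (squares), with bars for the mean and SD of 2 libraries. The groups do not overlap in any panel, and the siHNF4A libraries of ABCA3 lie at 101 and 58.5.

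Peroxisomal transporters carry very long-chain fatty acids and their derivatives into the organelle for oxidation. ABCD3, which takes up branched-chain fatty acids and bile acid precursors, had 2508 and 2439 normalized counts in the controls, against 2668 and 2659.5 in the knockdown. Its groups did not overlap, and it was not called, with a log2 fold change of 0.11 (limma adjusted p = 0.311). PEX19 and PEX3, which insert peroxisomal membrane proteins, had log2 fold changes of 0.090 and -0.12, and neither was called.

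Mitochondrial and lysosomal transporters were not called in any of 6 tested genes, 2 of which, ABCB6 and ABCB10, had an unadjusted p under 0.05 in limma. Over all tested genes 14.1% were called, and 4504 of 15577 had such an unadjusted p. ABCB6, a porphyrin transporter, had 3547 and 3668 normalized counts in the controls, against 3196 and 3118 in the knockdown, a log2 fold change of -0.19 (limma adjusted p = 0.0681). ABCB10, which acts in haem synthesis of the inner mitochondrial membrane, had 1076 and 1045 in the controls, against 804 and 931 in the knockdown, a log2 fold change of -0.29 (limma adjusted p = 0.0721). In both genes the knockdown libraries lay below the controls. ABCB9, a lysosomal peptide transporter, had a log2 fold change of -0.15. ABCB8, a mitochondrial protein, and ABCD4, which releases cobalamin from lysosomes, had 0.0078 and 0.015 with standard errors of 0.11, and both changed sign without control replicate 2 or siHNF4A replicate 1. FECH, the enzyme that inserts iron into haem, rose from 278 and 314 normalized counts to 444 and 507, a log2 fold change of 0.68 (limma adjusted p = 0.00748), and was not called without siHNF4A replicate 2 (0.0716). SLC25A37, the mitochondrial iron importer, had a log2 fold change of -0.039.

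ABC proteins without a membrane-spanning part were measured in 4 genes, of which 1 was called, lower (25%, beside 8.11% of all tested genes called lower and 14.1% called in either direction). ABCE1, which splits ribosomes after termination, had 5973 and 6382 normalized counts in the controls, against 5436 and 4984 in the knockdown. The groups did not overlap, and the log2 fold change was -0.25 ± 0.065 (SE, limma adjusted p = 0.0340). It was not called without control replicate 2 (0.109), siHNF4A replicate 1 (0.0600) or siHNF4A replicate 2 (0.230), nor after quantile normalization (0.0744) or rescaling by the upper quartile (0.0556). ABCF2 had 2233 and 2244 in the controls, against 1879 and 2019.9 in the knockdown, a log2 fold change of -0.20 (limma adjusted p = 0.0931). ABCF1, which binds initiation factor eIF2, had -0.073, and ABCF3 had 0.19, both with overlapping groups. EIF2S1, the alpha subunit of eIF2, fell from 4539 and 4499 normalized counts to 3728 and 3999, a log2 fold change of -0.23 (limma adjusted p = 0.0383). That p lay between 0.0664 and 0.240 with any 1 library left out and was 0.0819 after quantile normalization and 0.0682 after rescaling by the upper quartile. The ribosome rescue factors PELO and HBS1L had log2 fold changes of -0.095 and -0.13 and were not called.

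ABCC9, a regulatory subunit of potassium channels, had 72.9 and 49.8 normalized counts in the controls, against 62.6 and 71.5 in the knockdown, with overlapping groups and a log2 fold change of 0.15. KCNJ11, the pore subunit that ABCC8 is known to join, had a log2 fold change of 0.27 and was not called. TAP1 and TAP2, ABC proteins under another name that carry peptides to HLA class I, had log2 fold changes of -0.11 and -0.16 with adjusted p of 0.340 and 0.187 in limma. CFTR, the chloride channel of the C subfamily, stayed under 10 normalized counts in all 4 libraries.

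Among the ABC genes, 12 had a mean under 10 normalized counts and were not tested: ABCA4, ABCA6, ABCA8, ABCB4, ABCB5, ABCC8, ABCC11, ABCC13, ABCG1, ABCG4, ABCG5 and ABCG8. Their values lay between 0 and 12.2. Both sterol exporters of the intestinal brush border were near 0, with ABCG5 at 2.36 and 1.32 in the controls and ABCG8 at 1.22 and 0. ABCB4, the phosphatidylcholine transporter of the bile canaliculus, had 2.94 and 4.17 in the controls, against 3.75 and 5.08 in the knockdown. In 6 of the 12 both knockdown libraries lay above both controls, and in 0 below, against 16.8% above and 12.5% below over the 14670 genes under the filter and above 0. These 6 were ABCA8, ABCB5, ABCC11, ABCC13, ABCG1 and ABCG4. The knockdown libraries were the deeper ones by their low values and listed fewer symbols at 0, and the part of depth in these small differences was not tested. ABCG4 was listed at 0 in both controls and at 0.92 and 0.99 in the knockdown.

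Genes that work with ABC transporters were taken from a list of 37 symbols, of which 2 are names of the same gene. Of these, 31 were in the table and 23 were tested. FECH and ATP8B1 rose and EIF2S1 fell, which is 13% of those tested, beside 14.1% of all tested genes. ATP8B1, a phospholipid flippase that protects the canalicular membrane from bile salts, had 2967 and 2818 normalized counts in the controls, against 3458 and 3391 in the knockdown. No overlap was seen, and the log2 fold change was 0.24 (limma adjusted p = 0.0324). It was not called without control replicate 2 (0.115), siHNF4A replicate 1 (0.163) or siHNF4A replicate 2 (0.121). The scaffold proteins PDZK1 and SLC9A3R1, which anchor ABCC2 and ABCC4 at the apical membrane, were not called, with 32.2 and 15.2 against 18.8 and 10.9 normalized counts for PDZK1 and a log2 fold change of -0.043 for SLC9A3R1. SLCO4A1 and SLCO3A1, uptake carriers for organic anions, had log2 fold changes of -0.28 and -0.35 without overlap of the groups and adjusted p of 0.0677 and 0.108 in limma. SLC51A, a subunit of the basolateral bile acid exporter, had 14.4 and 7.97 in the controls, against 18.6 and 21.2 in the knockdown. Its partner SLC51B had 8.55 and 7.75 against 4.53 and 1.01 and was below the filter.

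Factors known to regulate ABC genes were taken from a list of 20 symbols, all in the table, and 18 were tested. Of these 4 were called, 2 higher and 2 lower, among them RXRB and HNF4G, which rose, and ESRRA, which fell. They are 22.2% of those tested, beside 14.1% of all tested genes. RXRB, a partner of many nuclear receptors, had 718 and 713 normalized counts in the controls, against 1033 and 981 in the knockdown, a log2 fold change of 0.49 (limma adjusted p = 0.00594). ESRRA, an orphan receptor of energy metabolism, had 1638 and 1691 in the controls, against 1293 and 1225 in the knockdown, a log2 fold change of -0.40 (limma adjusted p = 0.00782). HNF4G, the close relative of HNF4A, rose by 0.35 on the log2 scale. The groups of RXRB, ESRRA and HNF4G did not overlap. The call ended without siHNF4A replicate 1 for RXRB (adjusted p = 0.0534) and HNF4G (0.0612), and without siHNF4A replicate 2 for ESRRA (0.0637) and HNF4G (0.0876).

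The receptors that respond to sterols, bile acids and drugs were low or were not called. The oxysterol receptors NR1H2 and NR1H3, known activators of ABCA1 and ABCG1, had log2 fold changes of -0.22 and -0.025 with overlapping groups. The bile acid receptor NR1H4 and the drug receptor NR1I2, known activators of ABCB11, ABCC2 and ABCB1, had at most 2.22 normalized counts in any library. NFE2L2, an activator of several ABCC genes under oxidative stress, had 3394 and 3300 normalized counts in the controls, against 3141 and 3149.9 in the knockdown, a log2 fold change of -0.090 (limma adjusted p = 0.379).

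The calls were compared across other ways of processing the table. ABCC4 and ABCA12 were called in each of the 9 other settings that kept all 4 libraries and the trend between variance and level, with an adjusted p of at most 0.0391 in limma. Across the same 9, ABCC2 was called in 8, ABCA3 in 7 and ABCE1 in 6. Without that trend 0 of the 31 genes were called in limma, although 8 had an unadjusted p under 0.05, and 0 of all 15577 genes were called, although 3524 had such a p. When all genes above 0 in at least 1 library were tested, ABCC4 and ABCA12 were the ABC genes called.

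**Figure D4:**
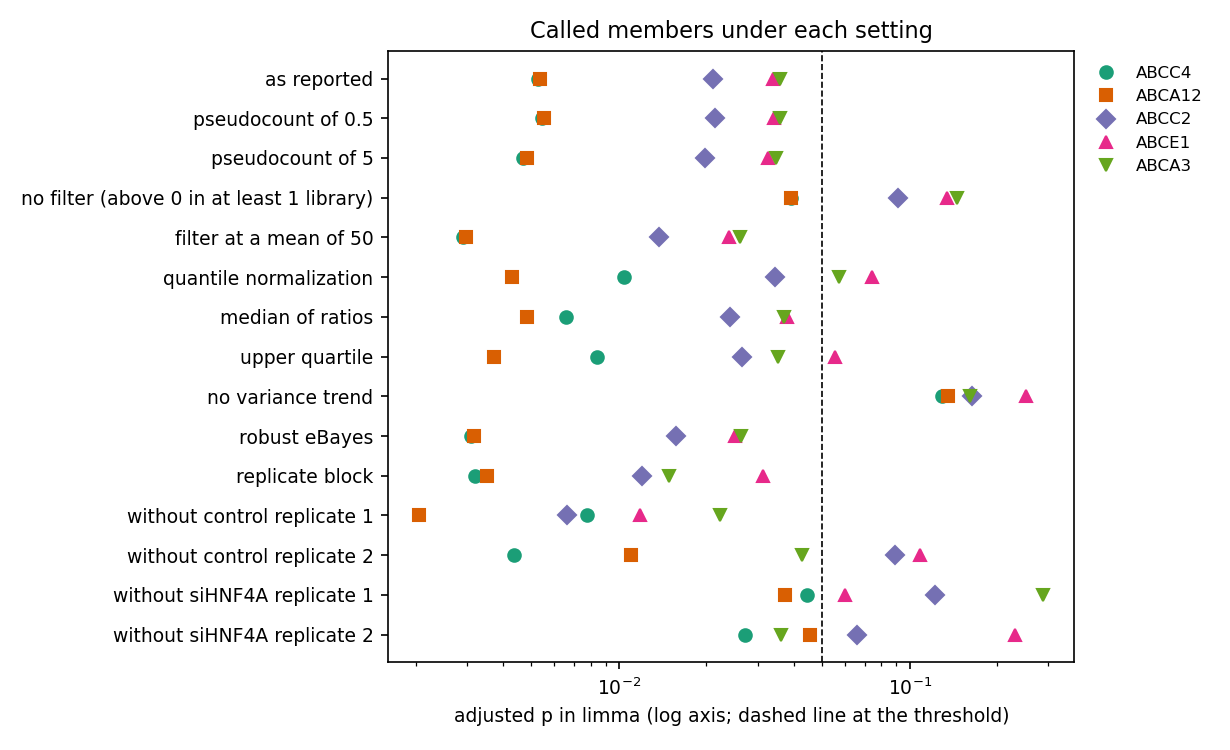
Adjusted p in limma (x axis, log scale) of 5 of the 6 called ABC transporter genes as reported and under each other setting (y axis), with the threshold as a dashed line. ABCC4 and ABCA12 lie left of the line in every setting except the fit without the variance trend, where all 5 lie right of it.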

How the data were processed

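Total RNA was column-purified and sequenced after a standard Illumina preparation, per the labels' protocols. The submitters' processing notes name Trim Galore, Bowtie, Bowtie2, Picard and MACS2 and the build hg19, without saying which step each served for the RNA. The counting program, its use of strand and the normalization are not given in the sources used here. The table holds normalized counts, a signal value per gene symbol that the authors deposited. Low values were examined for whole reads: between 31.9% and 44.8% of them lay on whole multiples of the most frequent low value (to within 2% of it), so reads were not recovered, no count model was fitted and no counting intervals are given.

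Groups come from the sample titles. Differences were tested in R 4.3.3 with lmFit and eBayes of limma 3.58.1 (with trend, no block) on log2(normalized count + 1), a scale that understates changes of low genes, over genes with a mean of at least 10. The Benjamini-Hochberg adjustment ran over all 15577 tested genes. An exact two-sided permutation test of 2 against 2 libraries cannot go below p = 0.333, so the adjusted values lean on the variance that limma pools over genes. The fit was also run on simulated data, and no call or missing call given here rests on that outcome. A gene that was not called is not thereby shown to be unchanged. Levels of different genes were not compared, since values are not per length. The ABC genes, roles and companion lists were chosen with earlier results of these data known. Named are the called ABC genes, the other ABC genes by value or range, the called genes of the partner and regulator lists, partners of called genes and HNF4A. Some genes under this rule are included in the counts and are not reported here. Further genes of these lists and the ABC pseudogenes were named after their values were seen. Promoters and overlaps come from RefSeq tables of GRCh38.p14. In RefSeq 32 of the 43 genes overlap another gene, all 6 called genes among them, so reads may be shared. Peaks were not placed at genes, as no annotation of hg19 was used.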

Additional observations from a re-analysis of the deposited data

How the results depend on the processing

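Over the 10 settings that kept all 4 libraries, 292 of 307 single values for ABC genes kept direction and side of the threshold, 14 lost the call, 1 gained it and 0 changed sign. Testing all genes above 0 gave 1 ABC gene higher and 1 lower, 726 calls over 30247 genes and 2 partner and regulator genes in place of 7. Without the variance trend the counts were 0 higher, 0 lower, 0 overall (3524 at an unadjusted p under 0.05) and 0 of the partners and regulators, and HNF4A, at a log2 fold change of -1.97, had an adjusted p of 0.0919 in limma. The cause was not tested. A filter at 50, which tests 28 of the ABC genes, gave them a median log2 fold change of -0.076 in place of 0.0078. Quantile normalization gave 2058 calls with 1031 higher, in place of 2202 with 938 higher, and the upper quartile gave 2145 with 1139 higher.

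With any 1 library left out, where the lone sample is assumed to vary like the other group, between 1 and 5 ABC genes were called higher and between 1 and 3 lower. Calls over all genes lay between 906 and 2413, partner and regulator calls between 1 and 7, and the median of the ABC genes between -0.11 and 0.11. Of the uncalled genes 9 changed sign across these 4 fits, with log2 fold changes from -0.14 to 1.55 for ABCA10 (in 3 of the fits, since without siHNF4A replicate 2, which holds its highest value, its mean fell under the filter), -0.44 to 0.093 for ABCA13, -0.21 to 0.011 for ABCA2, -0.049 to 0.23 for ABCA7, -0.0998 to 0.12 for ABCB8, -0.025 to 0.57 for ABCC10, -0.27 to 0.11 for ABCC3, -0.12 to 0.42 for ABCC9 and -0.095 to 0.13 for ABCD4.

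The replicate block gave 2428 calls, with 3 ABC genes higher and 3 lower, and changed the call of no tested ABC gene. The deviations of same-numbered libraries from their group means were compared (Pearson r of -0.019 across 15577 genes and 0.056 across 10918 genes with a mean of at least 100; genes are not independent replicates), and the numbers were not taken as pairs. The 12 ABC genes under the filter had adjusted p of 0.349 or more in limma when all genes above 0 were tested, and no difference was detected there. The depth of the libraries is unknown.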

Other observations

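Genes known to respond to the same sterol and stress sensors as several ABC genes were also measured, as a list of 16 symbols of which 15 were tested. Of these 2 were called higher and 2 lower, which is 26.7% of those tested, beside 14.1% of all tested genes (6.02% higher and 8.11% lower). INSIG1, which retains the sterol sensor complex in the endoplasmic reticulum, rose from 2429 and 2496 normalized counts to 3609 and 3254, a log2 fold change of 0.48 (limma adjusted p = 0.00261). LPCAT3, a phospholipid remodelling enzyme and known oxysterol receptor target, rose from 1066 and 1055 to 1524 and 1355, a log2 fold change of 0.44 (limma adjusted p = 0.00918), and was not called without siHNF4A replicate 1 (0.0828). MYLIP, another known target of those receptors, had 563 and 558 normalized counts in the controls, against 462 and 475 in the knockdown (limma adjusted p = 0.128). HMGCS1, a sterol synthesis gene, had a log2 fold change of -0.051 and was not called.

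Among targets of NFE2L2, NQO1, a quinone reductase, fell from 9701 and 10466 normalized counts to 7428 and 7708, a log2 fold change of -0.41 (limma adjusted p = 0.00187). SLC7A11, the cystine importer, fell from 2119 and 2286 to 1266 and 1766, a log2 fold change of -0.56 (limma adjusted p = 0.0203). Without siHNF4A replicate 1 its log2 fold change was -0.32 and its adjusted p 0.0899, and with robust variance estimates the adjusted p was 0.0525. GCLM, GCLC, HMOX1 and TXNRD1 had overlapping groups and were not called.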
